A study of Rattus norvegicus with 2 samples.

Results

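The S100a genes encode small calcium-binding proteins of the S100 family, and 8 of them were described here in the rat C6 glioma line: S100a1, S100a3, S100a4, S100a6, S100a10, S100a11, S100a13 and S100a16. The members were chosen by name, as probe sets whose only gene symbol in the platform annotation is one of these, which gave 8 probe sets, 1 per gene, out of 18166 genes with a symbol. C6 is an established rat line derived from a chemically induced glioma. There were 2 arrays, 1 of undifferentiated C6 cells (C6) and 1 of C6 cells treated with small molecules (SMiG), both grown in medium with serum. By its own labels, SMiG received forskolin, rapamycin and I-BET151, which respectively activate adenylyl cyclase, inhibit the growth kinase mTOR and block the acetyl-lysine readers of the BET family, without dose or time. The protocol text given for both samples, the untreated one included, instead names the GSK3 inhibitor CHIR99021 at 20 µM with forskolin at 100 µM for 35 days, and the sources used here do not settle which applies. The comparison asks how the expression of glioma cells differs after a treatment meant to turn them into glia. Since each state was measured on 1 array, no spread between replicates could be estimated and no p-value is given.

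S100 proteins carry EF-hand motifs, usually act as dimers, and on binding calcium expose a surface that docks onto target proteins. They have no enzymatic activity of their own, and work by binding annexins, cytoskeletal proteins and, once outside the cell, surface receptors. Most S100a genes lie together in the genome, whereas S100b, the S100 gene best known as a glial marker, lies apart from them. Several S100a genes are studied in glioma for their part in migration and invasion.

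Values are deposited log2 expression values, and each difference is the SMiG value minus the C6 value on that log2 scale. A gene counted as detected when at least 1 array exceeded a floor, the 95th percentile of 1342 olfactory and vomeronasal receptor genes taken as silent, which was 4.84 in C6 and 4.96 in SMiG. Of all genes, 10931 were detected, and the number of arrays limits the precision. The differences of the silent genes had an SD of 0.32, which gives a scale for technical scatter at low signal but says nothing of how cultures vary. Over detected genes the difference had a median of -0.01, with the middle 50% between -0.35 and 0.29. Values of different probe sets depend on their probes, so the levels of different S100a genes are not ranked against each other.

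None of the 6 detected S100a genes differed by 2-fold between C6 and SMiG. Among the detected genes 9.71% differed by at least 2-fold, 6.51% lower and 3.19% higher in SMiG. Of the 8 members, 6 were detected, each of them above the floor on both arrays, and 2, S100a3 and S100a16, were below it on both. S100a1, S100a6 and S100a13 had higher values in SMiG, S100a4 had a lower value, and S100a10 and S100a11 lay close to the same value on both arrays. The differences of the 6 detected genes ran from -0.60 for S100a4 to 0.61 for S100a1, with a median of 0.24. Of the 6, 4 were larger in size than 1 SD of the silent genes, 0.32, as were about 49.6% of all detected genes. None exceeded 2 SD, or 0.64, a size that about 21.8% of detected genes passed. At a lower threshold of 1.5-fold, 1 of the 6, S100a1, was higher and 1, S100a4, was lower in SMiG, where 25.5% of detected genes passed, 10.4% higher and 15.1% lower. Differences of this size, each from a single array per state, have no measured error.

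**Figure D1:**
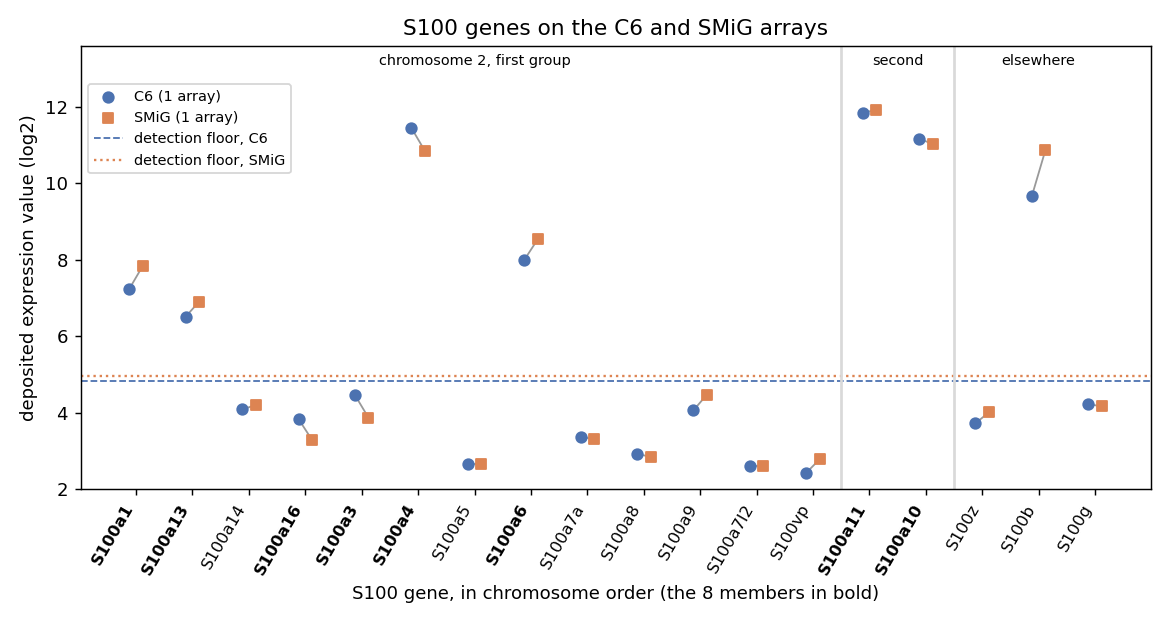
Deposited log2 expression values of the 18 S100 genes with a probe set, with the C6 array as circles and the SMiG array as squares; genes are in chromosome order along the horizontal axis and the members are in bold. The dashed and dotted lines are the detection floors of C6 (4.84) and SMiG (4.96), and 7 genes, 6 members and S100b, lie above them on both arrays.

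S100a4, also known as metastasin or fibroblast-specific protein, binds non-muscle myosin and is linked to cell motility. Its probe set (17740414) read 11.46 in C6 and 10.85 in SMiG. The SMiG value was thus 0.60 lower on the log2 scale, a 1.52-fold difference, and 14.4% of detected genes had a lower difference. Both values stood at least 5.89 above the floor of their array, so the gene was well detected in both states. Myh9, encoding the heavy chain of the non-muscle myosin that S100a4 binds, read 10.36 in SMiG and 10.75 in C6. In size, 42.8% of detected genes had a larger difference than Myh9. Myh10, also listed as an S100 binding partner, went the other way, at 8.45 in SMiG and 8.30 in C6.

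S100a6, or calcyclin, is a protein of proliferating and stromal cells that binds Cacybp and Sugt1, proteins linked to ubiquitin ligase complexes. Its probe set (17740424) read 7.99 in C6 and 8.54 in SMiG. That is a difference of 0.54, or 1.46-fold, in the opposite direction to S100a4, with 88.1% of detected genes below it. Its partner genes had lower values in SMiG, Cacybp at 9.68 against 9.93 and Sugt1 at 7.49 against 8.04. The Cacybp difference was small, as 58.5% of detected genes had a larger one in size, against 28.1% for Sugt1. The annexin partner Anxa11 read 7.56 in SMiG and 7.73 in C6. The differences of S100a6 and S100a4 lay 1.15 apart, although only S100a5 stands between them in the RefSeq gene order. For scale, the differences of all detected genes had an SD of 0.66, so 2 genes taken at random can also lie this far apart. The differences of 2 detected probe sets for the same gene had a gap with an SD of 0.42 over 147 such genes.

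The 250 bases before the annotated start of S100a4 and S100a6 are shown because these near neighbours had differences of opposite sign, and those of S100a11 because its values were nearly equal on both arrays. The sequences are RefSeq's on the GRCr8 build, all on the plus strand of chromosome 2, at chr2:178388279-178388528 for S100a4, chr2:178398287-178398536 for S100a6 and chr2:181874882-181875131 for S100a11. Capitals mark the letters TATAA on the gene's own strand and GGGCGG on either strand, the first resembling a TATA box and the second a GC box.
S100a4: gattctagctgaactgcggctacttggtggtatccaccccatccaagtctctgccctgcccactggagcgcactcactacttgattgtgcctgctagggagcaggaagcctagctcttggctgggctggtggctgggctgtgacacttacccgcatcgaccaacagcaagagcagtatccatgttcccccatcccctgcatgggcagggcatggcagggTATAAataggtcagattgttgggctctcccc
S100a6: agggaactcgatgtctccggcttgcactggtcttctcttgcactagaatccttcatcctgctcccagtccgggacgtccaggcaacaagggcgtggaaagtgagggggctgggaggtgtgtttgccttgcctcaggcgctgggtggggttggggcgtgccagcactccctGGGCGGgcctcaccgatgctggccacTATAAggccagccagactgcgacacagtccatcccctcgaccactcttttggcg
S100a11: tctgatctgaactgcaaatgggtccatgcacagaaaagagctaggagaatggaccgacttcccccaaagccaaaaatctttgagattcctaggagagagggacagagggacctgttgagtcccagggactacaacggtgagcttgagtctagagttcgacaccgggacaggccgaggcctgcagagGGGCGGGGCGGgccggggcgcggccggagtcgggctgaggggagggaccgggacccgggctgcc

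TATAA stood 31 to 27 bases before the annotated start of S100a4, with no GGGCGG in the window. S100a6 held TATAA from 54 to 50 and GGGCGG from 80 to 75 bases before its start. S100a11 held no TATAA and 2 copies of GGGCGG, from 64 to 59 and from 59 to 54, which overlap by a base. Of the 8 members, 6 have an entry in the promoter table. S100a1 and S100a10 have none. TATAA occurred in 3 of the 6 windows, those of S100a3, S100a4 and S100a6. It occurred in 16.7% of all 33469 promoter windows, which likewise lie before annotated starts. GGGCGG occurred in 4 of the 6, those of S100a3, S100a6, S100a11 and S100a13, against 30.5% of all windows. TGACGTCA and its core TGACG, the letters bound by cAMP-responsive factors, were in 0 of the 6 windows on either strand, against 1.59% and 18.2% of all windows. TGANTCA (the AP-1 site), ACGTG (the core bound by hypoxia-inducible factors) and TGATGNAA (a form of the ATF4 site) were likewise in 0 of the 6 on either strand, against 6.34%, 16.6% and 3.40%. These are matches of letters in a short window at the annotated start, which may not be the start used in these cells.

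S100a1 is best known from muscle, where it regulates the ryanodine receptor and the calcium pump encoded by Atp2a2, and it can pair with S100b. Its probe set (17749125) read 7.24 in C6 and 7.84 in SMiG. The difference of 0.61, or 1.52-fold, was the highest of the members, and 90.2% of detected genes had a lower one. Atp2a2 differed by -0.09. S100b, which is not among the 8, read 9.67 in C6 and 10.87 in SMiG. Its difference of 1.20 was larger than that of every S100a gene. It lay 3.74 SD of the silent genes from 0, but that SD describes scatter at low signal, not at the level of S100b.

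S100a13 takes part in the release of FGF1, a growth factor that leaves cells without passing through the secretory pathway. Its probe set (17740391) read 6.51 in C6 and 6.91 in SMiG. The difference of 0.39, or 1.31-fold, was higher than in 81.3% of detected genes, and 41.7% of detected genes had a larger difference in size. Fgf1 itself went the other way: it read 6.26 in C6 and 4.44 in SMiG, where it was below the floor, so its value was at least 2.46-fold lower.

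S100a10 (p11) differs from its relatives in that it no longer binds calcium, and it joins annexin A2 in a complex at the plasma membrane that also binds plasminogen. Its probe set (17740584) read 11.17 in C6 and 11.03 in SMiG, a difference of -0.14. Anxa2 read 11.45 in C6 and 11.27 in SMiG, a difference of -0.18. These 2 differences lay within 0.05 of each other, but both were small, and 69.4% of detected genes had a larger one in size than Anxa2. With 1 array per state, their closeness is not read as a link between the 2 genes. S100a11 (calgizzarin), a partner of annexin A1, had a probe set (17740581) that read 11.85 in C6 and 11.93 in SMiG. Its difference was 0.08, against -0.24 for Anxa1, which read 10.02 in SMiG and 10.27 in C6. In size, 76.3% of detected genes had a larger difference than S100a10 and 86.5% a larger one than S100a11. The RefSeq annotation holds 7 copies named after S100a11, 5 of them pseudogenes, and 1 pseudogene copy of S100a10, and how far their probe sets share signal with these copies was not tested. The copy S100a11l1, the one with a probe set of its own, was below the floor on both arrays at 3.71 and 3.32.

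S100a3, a cysteine-rich protein of the hair cuticle, and S100a16, a broadly expressed family member, gave no signal above the floor. S100a3 (probe set 17740409) read 4.46 in C6 and 3.87 in SMiG. S100a16 (probe set 17740402) read 3.83 in C6 and 3.29 in SMiG. Values below the floor have no order, so their measured differences of -0.59 and -0.55 are not read as lower expression, and no fold is given.

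**Figure D2:**
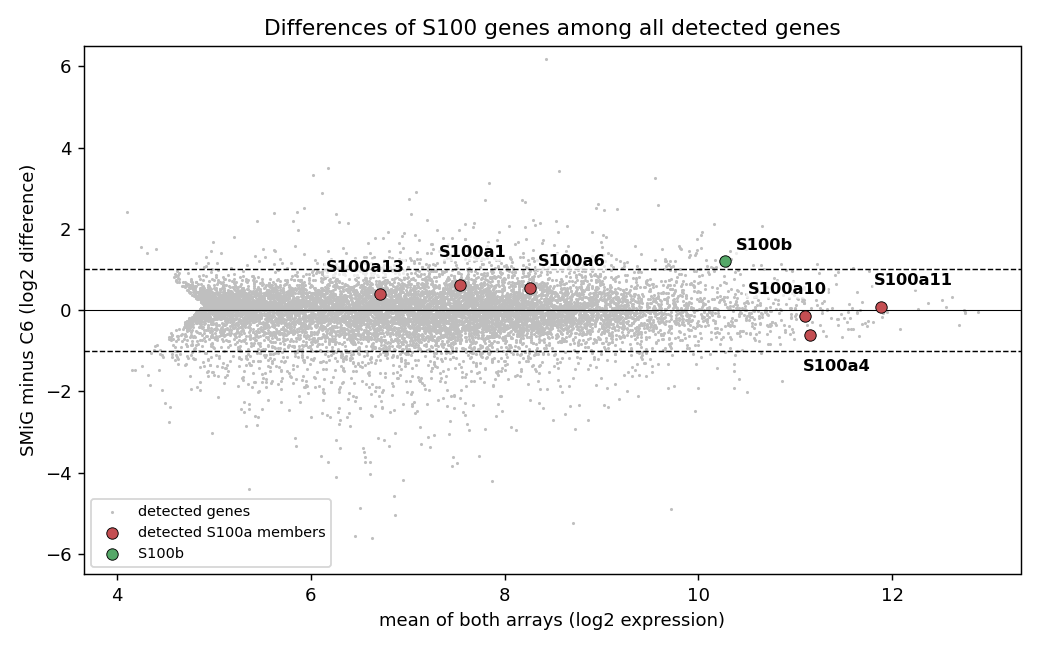
Difference between SMiG and C6 (log2, vertical axis) against the mean of both arrays (log2, horizontal axis) for the 10931 detected genes in grey, with the 6 detected S100a members in red and S100b in green. The dashed lines mark 2-fold; the 6 members lie between -0.60 and 0.61, inside the lines, and S100b lies above the upper line at 1.20.

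The rest of the family was mostly not detected. Of 10 other S100 genes with a probe set, S100b was the only detected one, and the remaining 9 were below the floor on both arrays, with values from 2.42 to 4.22 in C6 and from 2.59 to 4.47 in SMiG. They include S100a8, at 2.92 and 2.84 in C6 and SMiG, and S100a9, at 4.06 and 4.47, which encode the calprotectin subunits of neutrophils and monocytes. Of 4 S100-fused genes of the skin barrier with a probe set, Tchh, at 5.80 and 5.89 in C6 and SMiG, and Flg, at 5.14 and 5.25, were a little above the floor, and with S100b they gave these other family genes a median difference of 0.12. By RefSeq gene order, 15 S100 genes form 2 groups on chromosome 2, of 13 genes and of 2, the second being S100a11 with S100a10. In the group of 13, detected and undetected genes are interspersed: S100a4 and S100a6 were detected on both arrays while S100a5, which lies between them, read 2.66 on both. Of 13 other genes that RefSeq types as protein-coding, some of them with pseudogene symbols, between the S100 genes or among the 3 nearest on each side, 6 had a probe set and 4 were detected, with differences from 0 for Ilf2 to 0.74 for Snapin, so 0 of the 4 passed 2-fold.

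Annexins, membrane-binding proteins that several S100 dimers hold together, had lower values in SMiG in all 8 detected cases. However, 5 of the 8 differences were smaller than 1 SD of the silent genes, a size that about 49.6% of all detected genes exceeded. Of all 10931 detected genes 5501 were lower, and 2 of the 8 annexins were at least 2-fold lower, beside 6.51% of detected genes. The median difference of the 8 was -0.25, against -0.01 over all detected genes, and the sign held for each detected annexin under every other scaling tried. Anxa5, which binds exposed phosphatidylserine, read 9.71 in SMiG and 11.03 in C6 and so differed by -1.32. Anxa7 read 7.61 in SMiG and 8.71 in C6 and differed by -1.10. The annexins best known as S100 partners lay close to the same value on both arrays, with Anxa1 at -0.24, Anxa2 at -0.18, Anxa11 at -0.17 and Anxa6 at -0.15. Anxa8 was above the floor in C6 alone, by a small margin, at 4.99.

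Other binding partners of S100 proteins included genes on both sides. Of 44 with a probe set, 33 were detected, 23 with a lower and 10 with a higher value in SMiG, and the median difference was -0.25, where 5501 of all 10931 detected genes were lower and the median was -0.01. Past 2-fold were 12.1% of the list and 9.71% of all detected genes. At least 2-fold lower were Fgf1, Plaur, the urokinase receptor gene, at 6.22 against 7.59, and Septin2, a septin of the cytoskeleton, at 9.82 against 10.93. Pygb, encoding brain glycogen phosphorylase, was 2.33-fold higher, at 9.43 in SMiG and 8.21 in C6. Ahnak, a scaffold protein gene bound by the S100a10 and annexin A2 complex, lacked a probe set of its own and was not analysed here.

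Genes for surface receptors of secreted S100 proteins differed by less than 2-fold in all 13 detected cases of 18 with a probe set, where 9.71% of all detected genes passed 2-fold. Their median was -0.14, but its sign turned with the handling of low values, to 0.41 over the 8 genes above a stricter floor (the 99th percentile of the silent genes) and to 0.01 with values raised to the floor. Ager, encoding the RAGE receptor, was barely above the floor, at 5.47 in C6 and 5.32 in SMiG. Tlr4, encoding a receptor of innate immunity that binds S100a8 and S100a9, read 5.75 in C6 and 5.24 in SMiG. The differences ran from -0.69 for Cd68, a macrophage scavenger receptor gene whose SMiG value was below the floor, to 0.67 for Alcam, an adhesion molecule gene.

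EF-hand proteins outside the S100 family gave no common direction. Of 67 genes with a probe set, 44 were detected, with 2 at least 2-fold higher, 5 at least 2-fold lower and a median difference of -0.04. The 7 make up 15.9% of the list, against 9.71% of all detected genes past 2-fold. Ncald, encoding the neuronal calcium sensor neurocalcin delta, was 3.52-fold higher in SMiG, at 7.85 against 6.03, and Gca, encoding grancalcin, was 3.41-fold higher, at 7.55 against 5.78. Lower in SMiG were Rcn3, encoding a calcium-binding protein of the endoplasmic reticulum, at -1.44, and the calpain protease gene Capn1 at -1.33. Cetn4, a centrin gene, was at least 2.55-fold lower, with its SMiG value under the floor. Calb2, encoding calretinin, was counted at -1.49 but rests on a C6 value of 4.93, just over the floor, and has no bound. Calm2, a calmodulin gene, read 10.51 in C6 and 10.99 in SMiG.

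**Figure D3:**
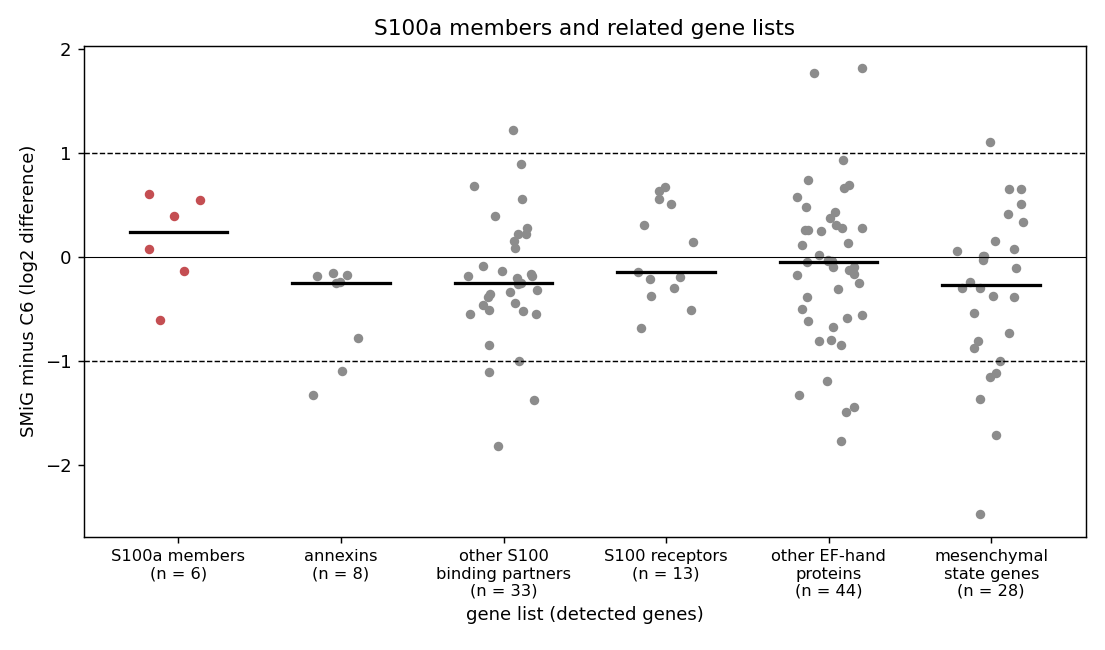
Difference between SMiG and C6 (log2, vertical axis) of each detected gene in 6 lists along the horizontal axis, with points for genes, sideways spread for legibility, and a black bar at the list's median. Dashed lines mark 2-fold; the 6 S100a members have a median of 0.24, and all 8 annexins lie below 0 with a median of -0.25.

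Markers of other cell types were set beside these values, since S100a4, S100a6 and S100a11 are also abundant in fibroblasts and immune cells. Of 9 microglia and macrophage markers with a probe set, 2 were above the floor on both arrays, as were 2 of 5 endothelial markers. The counts were 3 of 7 for fibroblast and mural, 5 of 10 for neuronal and 5 of 6 for Schwann cell markers. Over the whole array, 10056 of 18166 genes were above the floor on both arrays. Aif1, Itgam and Ptprc, which define microglia and leukocytes, were below the floor on both arrays, as were the fibroblast genes Dcn and Lum. The neuronal genes above it were Map2 (8.80 in C6 and 9.01 in SMiG), Gad1 (8.52 and 6.44), Dlg4 (7.20 and 6.25), Snap25 (5.65 and 6.17) and Syp (5.30 and 5.39). Col1a1 (8.40 and 7.25) and Pdgfrb (8.59 and 6.22) were well above it, whereas Kcnj8, the endothelial genes Tek and Cldn5, and the myeloid genes C1qa and Tmem119 read no higher than 5.83 on either array. Of 9 detected oligodendrocyte lineage markers, 7 were higher and 2 lower in SMiG, where 5347 of all 10931 detected genes were higher. Only 6 of the 9 were above the floor on both arrays. The myelin genes Mbp, Mog and Mag were below the floor in C6 and passed it in SMiG by only 0.03, 0.002 and 0.21. Sox10, a factor of that lineage, read 9.30 in C6 and 10.32 in SMiG and the myelin enzyme gene Cnp 9.05 and 10.57, whereas the precursor gene Pdgfra read 10.61 and 9.44 and Olig1 6.99 and 6.79. Among 8 astrocyte markers with a probe set, Aqp4, Slc1a2, Slc1a3 and Sox9 reached the floor in neither state. The 4 detected astrocyte markers were split, with S100b and Aldoc (9.37 and 10.27) higher in SMiG. The filament gene Gfap (6.05 and 5.48) and the gap junction gene Gja1 (8.19 and 5.90) had lower values in SMiG. Of 6 detected Schwann cell markers, 4 were higher and 2 lower: the myelin protein genes Pmp2 (6.28 and 9.39), Prx (5.76 and 7.41) and Pmp22 (10.98 and 11.91) and the factor Egr2 (9.45 and 9.96) against Ngfr (7.59 and 6.95) and Cdh19, which was below the floor in SMiG (6.72 and 4.28). Each of these glial lists thus held markers in both directions, and no S100a member differed by 2-fold. The part of any change in cell makeup in the S100a values was not tested, and in cultures measured as a whole, fewer cells with an RNA and less RNA per cell cannot be told apart.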

How the data were processed

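Total RNA of 2 rat C6 cultures, 1 per group, was labelled with biotin and hybridised to GeneChip arrays for whole transcripts, per the labels' protocols. The authors deposited 1 log2 value per probe set and array (36685 probe sets). The log base was read from the values, whose highest, 13.09, exceeds 11.09, the natural log of a 16-bit maximum. How the authors corrected background, normalized and combined probes is not given in the sources used here. Sorted values of the arrays differed by a median of 0.036, so no further normalization was applied.

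Genes were named from 18511 probe sets with 1 symbol. Those with several (575) or none (17599) were not used, and 0 of the former held a member. Probe sets of a gene were averaged, and genes were counted past 2-fold with no test. Where the dimmer array was below its floor, the fold was taken against the floor. The members and lists were chosen with earlier results of these data known. Named genes were all members, the detected S100 genes, up to 6 genes past 2-fold in each related list and a set of partner genes named whatever their value. The steps were tested on simulated data. Python 3.11.15, numpy 2.4.6, pandas 2.3.3 and statsmodels 0.14.6 were used.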

Additional observations from a re-analysis of the deposited data

How the results depend on the processing

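Tried instead were a stricter floor (99th percentile), no floor, low values raised to their floor, a median difference of 0, lowess detrending, quantile normalization, each gene's brightest probe set, and thresholds of 1.5-fold and 4-fold. The 6 detected members stayed detected and kept their sign under each of the first 7. Their ranges were 0.56 to 0.65 for S100a1, -0.65 to -0.58 for S100a4, 0.50 to 0.57 for S100a6, -0.18 to -0.12 for S100a10, 0.03 to 0.11 for S100a11 and 0.35 to 0.45 for S100a13, and none reached 2-fold. With low values raised to the floor, the undetected S100a3 and S100a16 both gave 0.12, the gap between the floors. At 1.5-fold, 1 member was higher and 1 lower, against 1140 higher and 1649 lower genes in all. At 4-fold there were 40 and 142. At the stricter floor the median was 1.20 for the other S100 genes, where S100b alone was left, and 0.41 for the receptors, of which 8 were left. A change counted as a move when it exceeded the SD of the silent genes, 0.32. Each member had 1 probe set, so probe sets could not be compared within a member. No paired analysis was possible because each group has 1 array. Signal limits S100a3 and S100a16, which lie below the floor on both arrays.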

Other observations

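Genes of mesenchymal and migratory glioma states, among which S100a4, S100a6, S100a10 and S100a11 are often counted, had members well past the S100a genes in size. Of 36 such genes with a probe set, 28 were detected, with 5 past 2-fold on the lower side and 1 on the higher side in SMiG and a median difference of -0.27. That is 21.4% past 2-fold, where 9.71% of all detected genes were, 6.51% lower and 3.19% higher, with a median of -0.01. Emp3, encoding an epithelial membrane protein, was the lowest at 8.73 in SMiG against 11.20 in C6. The collagen genes Col6a2 and Col1a1 differed by -1.71 and -1.15, Emp1 by -1.37 and the integrin gene Itga5 by -1.12. Stat3, encoding a transcription factor of cytokine signalling, was higher at 9.65 against 8.55. Vim, Cd44 and Lgals1, encoding vimentin, the hyaluronan receptor and galectin-1, differed by 0.01, 0.06 and -0.37. Over all 36 genes, detected or not, the median was -0.10.

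Some deposited values were identical to the last digit on both arrays. This was the case for 1011 probe sets, 2.76% of all, and for 83 detected genes, among them Ilf2 beside the S100 genes at 8.54. S100a5 and S100a7l2 were also identical, at 2.66 and 2.59, and 0 of the 8 members were.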
